A study of Mus musculus with 34 samples.

Results

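The regions described here are the 400 largest joined H3K27ac domains of unstimulated mouse bone marrow-derived dendritic cells (BMDCs). They were chosen by measured values: H3K27ac peaks of unstimulated CTCF-WT cells whose summit lay more than 2.5 kb from every gene start were joined when at most 12.5 kb apart, the bases of the peaks in each joined region were summed, and the regions with the highest sums were kept out of 12361 joined regions. Regions built this way resemble what the field calls super-enhancers, although no signal level entered the ranking.

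The BMDCs were grown for 6 days with GM-CSF from bone marrow of C57BL/6 mice, which the labels give as 8 weeks old. All mice carried CreER, a Cre recombinase that tamoxifen activates, expressed from the Rosa26 locus. WT cells had CreER alone and KO cells (CreER;CTCFfl/fl) also had loxP-flanked Ctcf alleles. 4-OH tamoxifen, given only on day 1, deletes Ctcf, and the sources do not make plain whether WT cultures received it too. Cells of either genotype were left unstimulated (WT, KO) or kept for 3 h with 100 ng/ml of LPS, the bacterial wall component that TLR4 senses (WTLPS, KOLPS). For STAT5 ChIP-seq, WT and KO cells were given GM-CSF again for 15 min. Of 34 samples, 4 are inputs and 30 come with peaks, 1 list for each antibody and condition. The labels do not say whether a list comes from 1 replicate or from pooled ones, no spread between replicates can be given, and no test between conditions was possible. Intervals in parentheses are 95% Wilson intervals, which cover counting error only.

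H3K27ac, acetylation of lysine 27 of histone H3, marks active enhancers and promoters, and long clusters of such enhancers are typical of genes that define a cell type. STAT5 is the transcription factor activated by the GM-CSF receptor, and p65 (RelA) is the NF-κB subunit that enters the nucleus after LPS. SMC1 is a subunit of cohesin, the ring complex that extrudes chromatin loops, and CTCF is the zinc finger protein at which cohesin often stops, most readily when the CTCF motif points towards the loop.

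Windows of 100 bases from the largest regions are shown first, since they hold the summits to which the values below refer. They lie around the strongest STAT5 summits of WT, the strongest p65 summits of WTLPS, and CTCF summits of WT just outside a region end, where the motif was found within 50 bp of the summit. Coordinates are GRCm38 (mm10), and letters are those of the + strand. Capitals mark the STAT5 motif (TTCNNNGAA) in this first set.
Btg1 region, STAT5, chr10:96239172-96239271: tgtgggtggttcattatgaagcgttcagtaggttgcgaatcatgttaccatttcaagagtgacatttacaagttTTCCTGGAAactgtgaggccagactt
Id2 region, STAT5, chr12:25189245-25189344: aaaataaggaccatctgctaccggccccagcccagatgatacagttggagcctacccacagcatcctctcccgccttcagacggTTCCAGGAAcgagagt
Rbpj region, STAT5, chr5:53402940-53403039: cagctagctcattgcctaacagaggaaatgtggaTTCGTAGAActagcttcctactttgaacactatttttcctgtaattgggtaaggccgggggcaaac
Klf6 region, STAT5, chr13:5804720-5804819: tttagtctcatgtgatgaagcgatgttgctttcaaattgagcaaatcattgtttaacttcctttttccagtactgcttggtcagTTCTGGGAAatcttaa

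The Btg1 window had a STAT5 fold enrichment of 58.0 in WT and 47.3 in KO, where fold is the deposited ratio of fragment pileup to local background. The Klf6 window had 43.4 and 36.98, the Rbpj window 33.5 and 27.4, and the Id2 window 20.6 and 12.2. All 4 lay outside protein-coding genes, and the Id2 window fell in an exon of the non-coding gene Gm47705. Fold values depend on the coverage of each library and are given only to show that a STAT5 peak was listed at these sites in both genotypes. In the second set, capitals mark the κB motif.
Rbpj region, p65, chr5:53509720-53509819: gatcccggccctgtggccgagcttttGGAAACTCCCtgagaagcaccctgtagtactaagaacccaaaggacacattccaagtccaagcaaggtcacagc
Cd47 region, p65, chr16:49970600-49970699: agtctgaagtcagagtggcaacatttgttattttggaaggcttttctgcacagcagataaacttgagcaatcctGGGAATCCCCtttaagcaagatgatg
Sgip1 region, p65, chr4:102572224-102572323: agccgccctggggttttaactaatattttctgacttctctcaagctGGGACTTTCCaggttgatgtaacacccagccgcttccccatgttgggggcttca
Zc3h12c region, p65, chr9:52174687-52174786: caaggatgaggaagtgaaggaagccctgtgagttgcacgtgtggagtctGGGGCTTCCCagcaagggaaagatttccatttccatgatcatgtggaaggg

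The Zc3h12c window had a p65 fold of 16.4 in WT and 31.8 in WTLPS, and of 16.4 and 29.7 in the matching KO lists. The Cd47 window had 32.1, 37.2, 25.8 and 23.1, the Sgip1 window 23.4, 26.95, 13.5 and 7.71, and the Rbpj window 25.1, 27.5, 11.1 and 21.5 in the same order. The Rbpj window lay in the body of Rbpj and the Sgip1 window in that of Pde4b, a cyclic AMP phosphodiesterase, neither in an exon. The other 2 lay outside protein-coding genes. The third set shows CTCF summits outside a region end, with the CTCF core in capitals.
Cd47 region, CTCF, chr16:50074089-50074188: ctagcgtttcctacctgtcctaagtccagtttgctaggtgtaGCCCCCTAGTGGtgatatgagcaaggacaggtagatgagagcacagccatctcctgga
Irf2 region, CTCF, chr8:46953576-46953675: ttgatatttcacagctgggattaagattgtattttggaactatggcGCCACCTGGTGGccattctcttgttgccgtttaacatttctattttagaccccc
Tnfsf8 region, CTCF, chr4:63948240-63948339: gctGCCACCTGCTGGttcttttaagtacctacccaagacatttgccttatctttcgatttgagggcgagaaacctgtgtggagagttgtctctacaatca
Tgfbr1 region, CTCF, chr4:47246912-47247011: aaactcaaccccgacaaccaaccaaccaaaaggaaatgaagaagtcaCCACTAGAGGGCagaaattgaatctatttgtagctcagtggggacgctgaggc

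The Cd47, Irf2 and Tnfsf8 windows lay right of their region, by 2459, 232 and 639 bp, with the core on the reverse strand. The Tgfbr1 window lay 701 bp left of its region, in the body of Col15a1 but in no exon, with the core on the forward strand. In all 4 the core pointed towards the region. CTCF was listed in KO at the Irf2 window (fold 29.6 in WT and 16.2 in KO), at the Tnfsf8 window (33.1 and 11.1) and at the Tgfbr1 window (13.5 and 4.30), and was not listed in KO at the Cd47 window (8.80 in WT). None of the 4 windows had an H3K27ac peak in any condition.

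The 400 regions spanned 35.7 Mb and held 14637 of 62543 distal WT H3K27ac peaks (23.4%) and 13.9 of 41.3 Mb of distal peak bases (33.6%). The next 400 regions by rank held 5.7 Mb. Spans ran from 21.5 to 504.5 kb with a median of 76.5 kb, and the summed peak bases from 18.2 to 304.6 kb with a median of 27.6 kb. A region held between 8 and 207 peaks, with a median of 31. The widest peak made up a median of 19.6% of a region's distal bases, and over 50% in 17 regions, among them those of Spi1 (15630 of 18805 bp) and Myo1f (14707 of 18173 bp). Distal peaks covered 38.9% of the span. The widest peak, of 44789 bp, lay in the region of Pdcd1lg2, which encodes the T cell inhibitory ligand PD-L2. By chromosome, the highest counts were on chromosomes 2 (49), 1 (35) and 6 (33), and 1 region lay on X. The last members were named by Cd200 (18276 bp), Sema4a (18263 bp), Acta2 (18257 bp), Lpp (18189 bp) and Myo1f (18173 bp), and the first regions left out by Clec9a (18162 bp), Thap12 (18145 bp), Pla1a (18065 bp), Incenp (18046 bp) and Olr1 (18041 bp). The sums declined without a step at this rank.

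**Figure D1:**
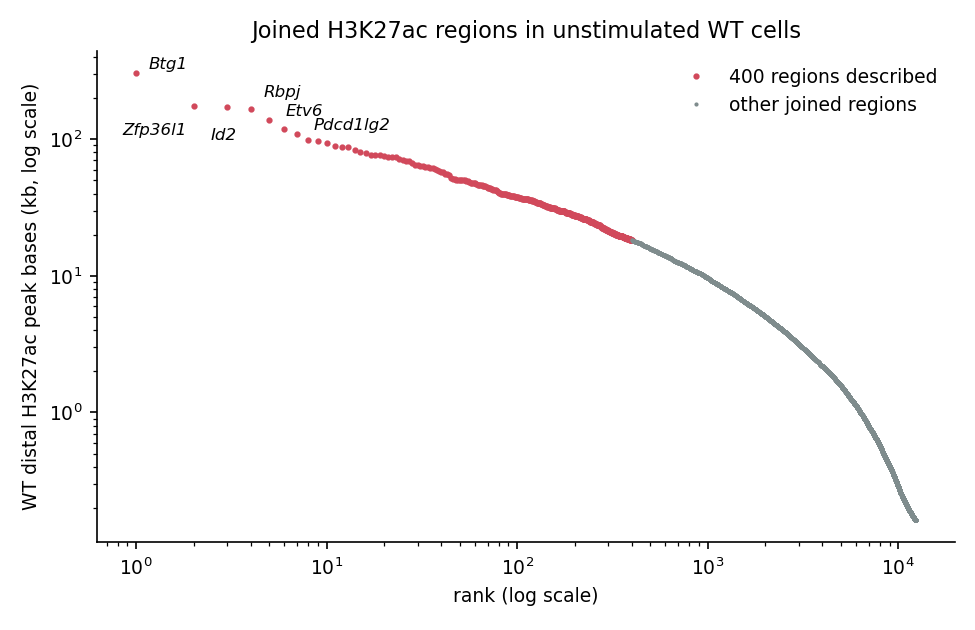
Summed bases of distal H3K27ac peaks in unstimulated WT cells (kb, log scale) against the rank of each of 12361 joined regions (log scale). The 400 regions described (red) run from 304.6 kb at Btg1 to 18.2 kb, and the other regions (grey) continue the curve without a gap.

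A region is named by the protein-coding gene whose start lay nearest to its middle, which does not show that the region acts on that gene. Among the 400 regions, 191 (47.8%) held no protein-coding start, 148 held 1 and 61 held 2 or more. The nearest start lay at least 50 kb away for 62 regions, 85 lay wholly within 1 protein-coding gene, and 71 touched no protein-coding gene body. Genes with a start inside a region, or nearest to one, numbered 466 of 21911 protein-coding genes (2.13%). The share was 3.04% among genes with an H3K4me3 peak at the start in WT and 0.927% among those without one.

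The share of genes linked to a region was largest in the list of myeloid transcription factors. Of 36 transcription factors of myeloid and dendritic cells, 15 were linked (41.7%). They included Spi1, which encodes the lineage factor PU.1, Irf8 and Batf3, both needed for cross-presenting dendritic cells, Cebpb, a C/EBP factor of monocytic cells, and Id2, an inhibitor of E proteins. Antigen presentation, costimulation and migration genes gave 8 of 25 (32%), among them Ciita, the master regulator of MHC class II, the class II genes H2-Aa and H2-Eb1, and the lymph node homing receptor Ccr7. Of 33 myeloid surface receptors and adhesion molecules, 10 were linked (30.3%), among them Csf1r, Tlr4, the LPS receptor, and Cx3cr1, the fractalkine receptor. AP-1 and immediate early factors gave 4 of 19, NF-κB subunits and feedback inhibitors 3 of 18 (Tnfaip3, Tnip3 and Birc3), and LPS-inducible cytokines, chemokines and enzymes 5 of 36 (Il6, Il1rn, Ccl5, Ccl17 and Ccl22). Of 20 genes of the GM-CSF receptor, JAK2/STAT5 and known targets, Jak2, the receptor's kinase, and Mcl1, a survival factor, were linked. In the same lists, the dendritic and myeloid cell markers Irf4, H2-Ab1, Cd86, Csf2rb, Itgax, Itgam and Cd14 were not linked. None was linked among markers of T cells (13), B cells (10), neutrophils and their precursors (12), erythroid cells, mast cells and megakaryocytes (13) or cells outside the blood lineages (12), and none among cohesin and chromatin architecture genes (16) or housekeeping and ribosomal protein genes (16). The lists were chosen with earlier results of these data known, and the shares are descriptions.

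H3K27ac peaks of all kinds, promoter peaks included, covered 15.6 Mb of the 400 regions in WT and 13.7 Mb in WTLPS, against 8.96 Mb in KO and 7.27 Mb in KOLPS. This was 25.5, 23.1, 21.7 and 22.4% of all bases in the 4 lists. The median region was covered over 31.8, 27.3, 18.8 and 14.2 kb in the same order, and H3K27ac was listed in every region in each condition. The background coverage recovered from the KO lists was also lower. In fragments per base, it was 1.17 and 1.2 for WT and WTLPS but 0.748 and 0.801 for KO and KOLPS. The mapped read numbers that the authors list for these H3K27ac libraries differed less between conditions. Background coverage ranged from 2.82 (KOLPS) to 3.74 (WT) in the CTCF lists and from 4.49 (KOLPS) to 5.76 (WTLPS) for SMC1. For p65 it ranged from 0.705 (KO) to 0.855 (WTLPS), and for STAT5 it was 1.33 in WT and 1.7 in KO. For WT and KO lists of H3K27ac, values were therefore also computed from lists reduced to equal covered bases and after division by the bases each list has outside promoters, which were 0.632 times as many in KO as in WT and 0.502 times as many in KOLPS as in WTLPS. Beyond these values, the part of coverage was not tested.

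In the Btg1 region (chr10:96202911-96707372), the largest, H3K27ac covered 325.7 kb in WT, 262.0 kb with LPS (WTLPS), 200.5 kb in KO and 187.0 kb with LPS (KOLPS). Btg1 encodes an antiproliferative factor. The Zfp36l1 region (chr12:79589023-79933530), named by the gene of an mRNA decay factor whose start lay 179.5 kb away, had 176.2, 79.8, 57.3 and 30.4 kb. The Id2 region (chr12:25134428-25440662) had 181.8, 182.4, 126.5 and 103.7 kb, and the region of Rbpj, the DNA-binding partner of Notch (chr5:53354260-53620890), had 184.2, 175.9, 111.6 and 95.5 kb. Coverage was lower in both KO lists than in both WT lists in each of these regions, while WTLPS was close to WT in the Id2 and Rbpj regions. The Zfp36l1 region had the widest spread of the 4, with 30.4 kb in KOLPS against 176.2 kb in WT.

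Of the other regions among the 12 largest, Etv6, an ETS repressor, had 157.0, 137.6, 88.2 and 83.2 kb. The zinc finger factor Klf6 had 126.2, 140.2, 62.0 and 67.8 kb, and Pdcd1lg2 had 112.0, 104.5, 79.2 and 56.6 kb. The Klf6 region was covered more widely with LPS than without it in either genotype. The region of Cd47, the don't-eat-me signal, had 108.3, 110.2, 60.6 and 59.8 kb, and that of Asap1, an Arf GTPase-activating protein, had 96.4, 104.2, 72.0 and 73.7 kb. Marcks, a substrate of protein kinase C, had 100.6, 95.2, 30.5 and 34.4 kb, Tmsb4x, an actin-binding thymosin, had 103.1, 82, 44.6 and 22.6 kb, and the Sgip1 region had 87.9, 91.5, 42.1 and 41.0 kb. In all 12 regions both KO lists covered fewer bases than both WT lists as deposited. At equal covered bases KO/WT was still below 1 in all 12 and KOLPS/WTLPS in 11, with Btg1 at 1.04, while after division by list bases KO/WT was below 1 in 9 (Id2 1.10, Pdcd1lg2 1.12 and Asap1 1.18 were above) and KOLPS/WTLPS in 5.

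**Figure D2:**
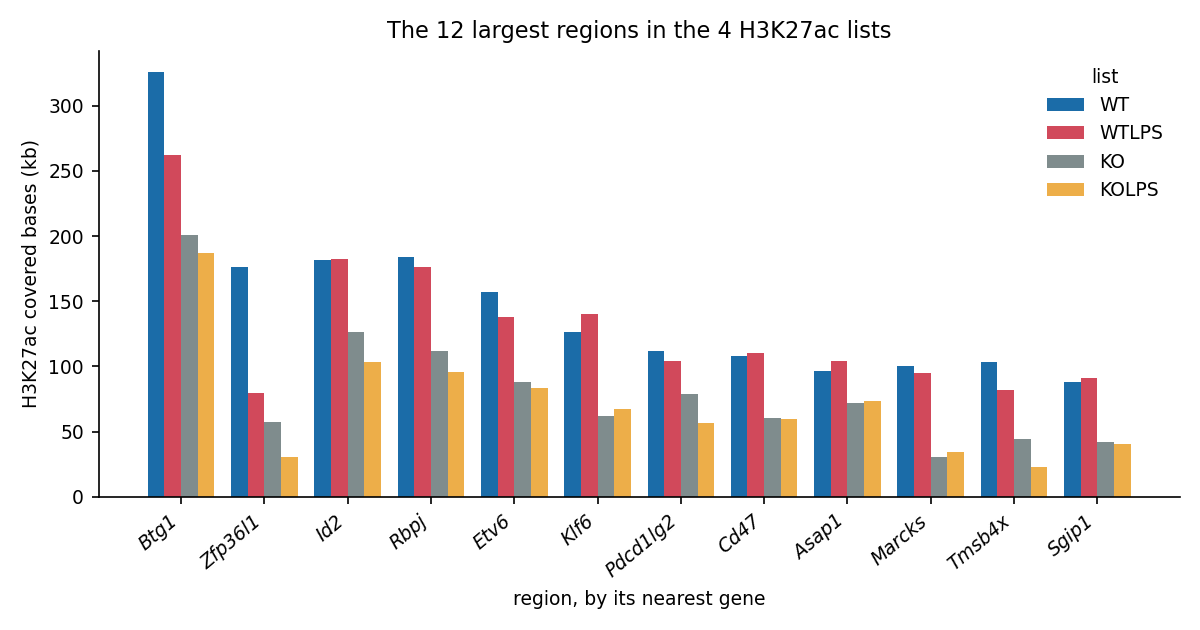
H3K27ac covered bases (kb, from 0) of the 12 largest regions, by their nearest gene, with a bar for each of the 4 lists and no error bars because each list is 1 value. As deposited, both KO bars are lower than both WT bars in all 12 regions (325.7 and 262.0 against 200.5 and 187.0 kb at Btg1), which after division by list bases held for KO/WT in 9.

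Ratios to WT are affected by the selection on WT, since regions picked for high WT values are on average lower in any other list. The ratios KOLPS/WTLPS and KOLPS/KO do not use the WT list directly. Summed over the 400 regions, WTLPS/WT was 0.884, KO/WT 0.576, KOLPS/KO 0.811 and KOLPS/WTLPS 0.528. Over all other joined regions the ratios were 0.788, 0.557, 0.740 and 0.524, and over the whole lists 0.979, 0.678, 0.785 and 0.544. With every list reduced to its strongest peaks at equal covered bases, the ratios were 0.916, 0.752, 0.990 and 0.812. When covered bases were divided by the bases each list has outside promoters, KO/WT was 0.911, and KOLPS/KO (1.023) and KOLPS/WTLPS (1.053) turned to above 1.

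Region by region and as deposited, KOLPS/WTLPS was at or below 0.5 in 191 of the 400 regions (47.8%, against 57.7% of 8137 joined regions with H3K27ac in WTLPS) and at or above 1.5 in 3 (0.75%, against 5.33%). At equal covered bases these counts were 61 and 45, and after division by list bases 38 and 78. KO/WT was at or below 0.5 in 148 (37%, against 64.5% of all 12361) and at or above 1.5 in 0 (against 1.86%), which became 84 and 17 at equal covered bases and 51 and 23 after division. WTLPS/WT was at or below 0.5 in 47 (11.8%, against 53.7%) and at or above 1.5 in 21 (5.25%, against 6.83%), and in 78 and 42 at equal covered bases. KOLPS/KO was at or below 0.5 in 56 (14%, against 41% of 7704 with H3K27ac in KO) and at or above 1.5 in 18 (4.5%, against 9.38%). At equal covered bases the balance turned, with 23 at or below 0.5 and 53 at or above 1.5, as it did after division, with 21 and 38. Most joined regions were short, with a median of 2 peaks, and 4224 of them had no H3K27ac base in WTLPS and 4657 none in KO, against 0 of the 400. The next 400 regions, which are closer in length, had 42.9% at or below 0.5 for KOLPS/WTLPS and 34.2% for KO/WT. For WTLPS/WT they had 18.2% and for KOLPS/KO 20.8%. At or above 1.5 they had 3.01% for KOLPS/WTLPS, 0.75% for KO/WT, 4.75% for WTLPS/WT and 5.01% for KOLPS/KO.

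As deposited, KO/WT was below 1 in 388 of the 400 regions (97%, against 91% of all 12361 joined regions and 92% of the next 400 by rank). In the 12 others of the 400, H3K27ac covered more bases in KO than in WT, as it did in 32 of the next 400. The region with Cebpb had 42.1 kb in WT, 37.8 kb in WTLPS, 55.5 kb in KO and 47.2 kb in KOLPS, so that both KO values were above both WT values (KO/WT 1.318, 1.54 at equal covered bases and 2.08 after division by list bases). Sirpa, the receptor of CD47, had 29.0, 33.2, 33.2 and 33.1 kb. Mitf, a factor of the melanocyte and osteoclast lineages, had 39.4, 45.4, 42.6 and 35.1 kb, and Csf1r, the M-CSF receptor, had 27.2, 11.9, 28.8 and 13.1 kb. The Csf1r region was covered less widely in both LPS lists. The chemokine receptor Ccr1 had 38.4, 34.8, 39.4 and 29.0 kb, and Il1rn, the interleukin-1 receptor antagonist, had 23.4, 38.0, 24.5 and 27.4 kb. The remaining 6 were named by Lpp, Tatdn2, Frmd4b, Ptpn1, Mbp and Rassf6, with KO/WT from 1.006 to 1.250. With lists of equal covered bases, KO/WT was above 1 in 83 regions and below 1 in 317, and after division by list bases it was above 1 in 162 and below 1 in 238. The 12 are named because their ratio was above 1.

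The lowest KOLPS/WTLPS among regions with at least 2000 covered bases in both lists was at Fgl2, a fibrinogen-like immune regulator, with 26.0 kb in WT, 26.7 kb in WTLPS, 1.69 kb in KO and 2.63 kb in KOLPS (ratio 0.098). It was followed by the second region named by Marcks (32.2, 26.9, 6.05 and 3.47 kb), by that of Klrk1, the activating receptor NKG2D (36.4, 21.8, 4.93 and 2.91 kb), and by those of Dpp10 (24.2, 20.6, 5 and 2.95 kb) and Gab2, a signalling adaptor (28.0, 21.0, 8.04 and 3.32 kb). In these 5 regions both KO lists were far below both WT lists. At equal covered bases the ratio was 0.19 at Fgl2, 0.21 at Dpp10 and 0.29 at Klrk1, and 0.68 at Gab2 and 1.01 at Marcks. After division by list bases the 5 ratios were 0.20, 0.28, 0.27, 0.32 and 0.26 in that order.

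The highest KOLPS/WTLPS was at Tfeb, a lysosomal gene regulator, with 19.4 kb in WT, 6.71 kb in WTLPS, 19.4 kb in KO and 13.0 kb in KOLPS (ratio 1.942). Adora3, an adenosine receptor, had 24.0, 4.77, 19.4 and 7.86 kb, and Itm2b had 21.4, 3.75, 16.1 and 5.66 kb. The inhibitory receptor Cd300a had 38.2, 11.6, 29.5 and 17.1 kb, and Map3k1 had 18.3, 3.35, 10.8 and 4.75 kb. All 5 had fewer covered bases with LPS than without it in both genotypes.

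The 3 highest WTLPS/WT ratios were at Il6, Tnfaip3 and Tnfsf8. The Il6 region (chr5:29823448-29975439), whose edge lay 37.7 kb from the start of Il6, had 44.7 kb in WT and 128.6 kb in WTLPS, and 8.58 kb in KO and 53.1 kb in KOLPS. The ratio was 2.880 in WT and 6.189 in KO cells, and KOLPS/WTLPS was 0.413 as deposited, 0.48 at equal covered bases and 0.82 after division by list bases. The region of Tnfaip3, which encodes the NF-κB inhibitor A20, had 44.0, 103.6, 30.3 and 56.5 kb, and the Tnfsf8 region, with the genes of the TNF family ligands Tnfsf8 and Tnfsf15, had 67.8, 151.3, 29.9 and 71.0 kb. The 5 highest KOLPS/KO ratios with at least 2000 bases in both lists were at Il6, Tnfsf8 and 3 further regions. These were named by A730009L09Rik (37.5, 71.3, 20.7 and 48.8 kb), Rgs1, a regulator of G protein signalling (28.6, 45.5, 6.67 and 14.2 kb), and Rapgef2 (24.1, 36.5, 7.76 and 16.4 kb). All 6 regions were picked for high ratios with LPS, so the gain in the genotype that picked them was set by that choice. Each of these 6 regions covered more bases with LPS in both genotypes, under either scaling too. Each covered fewer bases in KOLPS than in WTLPS, except that after division by list bases KOLPS/WTLPS was 1.09 at Tnfaip3 and 1.36 at A730009L09Rik. Of 21 regions at or above 1.5 for WTLPS/WT, 9 (42.9%) were so for KOLPS/KO, which is 50% of the 18 there. At equal covered bases 25 of 42 (59.5%) were so, which is 47.2% of 53, and after division by list bases 16 of 21 (76.2%), which is 42.1% of 38. The WTLPS/WT list also named Rassf6 (2.190), Klf7 (2.097) and Lpp (2.046), which came next after Tnfsf8, and Zfat, Psma6, Trps1, Ahr, Cited2 and Jarid2, with ratios from 1.524 to 1.795. The lowest KOLPS/KO with at least 2000 bases in both lists was at Ehf, an epithelial ETS factor (47.4, 15.5, 10.7 and 2.85 kb), followed by Apip (23.1, 8.92, 11.9 and 3.33 kb), Tifab (22.2, 4.98, 15.9 and 4.70 kb), Sept9 (25.1, 9.41, 18.4 and 5.93 kb) and Grk5 (20.9, 11.4, 13.1 and 4.33 kb). All 5 were also covered less widely in WTLPS than in WT.

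**Figure D3:**
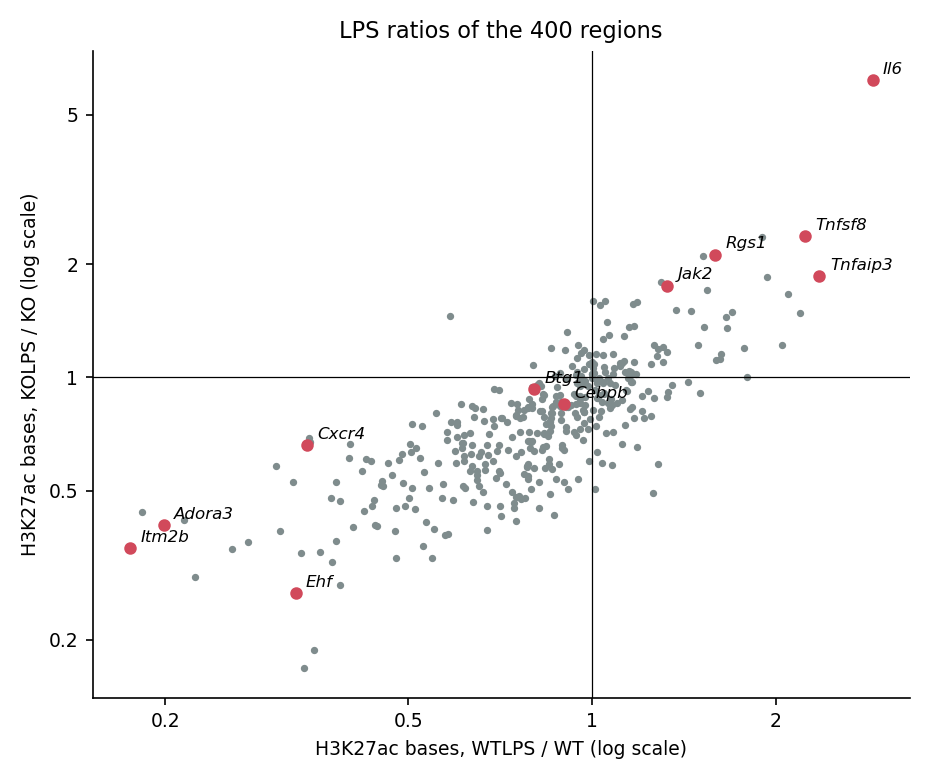
Ratio of H3K27ac covered bases with LPS to those without it in WT cells (x axis, log scale) and in KO cells (y axis, log scale), with a point for each of the 400 regions, 11 of them named in red. The lines mark a ratio of 1, and Il6 sits at 2.880 and 6.189, while Ehf, Itm2b and Adora3 are at the low end of both.

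Among linked genes of the myeloid transcription factor list, 17 regions had KO/WT from 0.18 to 1.32 with a median of 0.70, and KOLPS/WTLPS from 0.17 to 1.25 with a median of 0.54. The medians of all 400 regions were 0.576 and 0.516. Irf8 had 39.7 kb in WT, 35.8 kb in WTLPS, 26.0 kb in KO and 16.7 kb in KOLPS, Spi1 had 26.2, 22.9, 21.6 and 19.2 kb, and Batf3 had 43.5, 25, 30.3 and 11.5 kb. After division by list bases KO/WT was 1.04 at Irf8, 1.30 at Spi1 and 1.10 at Batf3, so the direction there depends on the scaling. Low values under every scaling were in the regions of Nr4a3, an orphan nuclear receptor needed for dendritic cell migration, with 50.1, 68.7, 14.2 and 21.3 kb in the larger and 20.1, 22.4, 3.57 and 3.82 kb in the smaller (KO/WT 0.45 and 0.28 after division). Antigen presentation genes had a median KO/WT of 0.56 over 7 regions as deposited, from 0.32 to 0.84. Among them were Ciita (70.3, 72.0, 44.1 and 38.9 kb), the class II region (60.8, 61.9, 31.0 and 29.9 kb) and Cxcr4, the CXCL12 receptor (60.0, 20.5, 26.6 and 17.5 kb). After division by list bases KO/WT was 0.99 at Ciita, 0.81 in the class II region and 0.70 at Cxcr4, and was above 1 at Icosl (1.32) and Pdcd1lg2 (1.12). Over 10 regions of myeloid receptors the median KO/WT was 0.79, with Itga4, an integrin, lowest (58.5, 76.3, 13.9 and 16.8 kb). Jak2 had 58.3, 77.4, 20.2 and 35.5 kb, and the region with Mcl1 had 57.2, 57.1, 45.5 and 46.4 kb. Birc3, an inhibitor of apoptosis, had 43.1, 43.1, 14.4 and 15.8 kb.

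A STAT5 summit lay inside 355 of the 400 regions in WT (88.8%, 85.3 to 91.5, against 20.8% of all joined regions) and inside 331 in KO (82.8%, 78.7 to 86.1, against 17%). Since the regions are long by the rule, a share of regions must be read beside the density. STAT5 summits of WT numbered 35.3 per Mb inside, 7.5 per Mb in the 10 kb outside each end and 10.2 per Mb from there to 100 kb. In the other joined regions the density inside was 31.5 per Mb. Per Mb of distal WT H3K27ac peak bases the order turned, with 90.8 STAT5 summits in the 400 regions and 113.5 in the others. The Btg1 region held 17 STAT5 summits in WT and 16 in KO, Klf6 16 and 17, Rbpj 14 and 9, and Pdcd1lg2 13 and 12. The 400 regions took up 15.4% of the WT list (1261 of 8185 peaks). A STAT5 peak of WT overlapped a KO peak in 65.3% (62.7 to 67.9) of cases inside the 400 regions, in 66.7% in other joined regions and in 63% outside joined regions.

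As deposited, p65 was listed in more of the regions after LPS than before it. A p65 summit lay inside 164 regions in WT (41%, 36.3 to 45.9, against 4.1%), 335 in WTLPS (83.8%, 79.8 to 87.0, against 16.4%), 101 in KO (25.2%, 21.2 to 29.7, against 2.52%) and 194 in KOLPS (48.5%, 43.6 to 53.4, against 6.75%). The lists held 781, 5465, 504 and 1752 peaks. Cut to the size of the smallest by keeping the strongest peaks, the shares were 29, 24.5, 25.2 and 22.5%, and WTLPS was no longer the highest. The cut also takes away the higher peak number with LPS itself. These shares therefore cannot show whether p65 was in more regions after LPS. Inside density in WTLPS was 29.7 per Mb, against 6.12 in the 10 kb outside the ends and 23.6 inside the other joined regions. Counted per Mb of distal WT H3K27ac peak bases, it was 76.4 in the 400 regions and 85.1 in the others. The Btg1 region held 22 p65 summits in WTLPS and 10 in KOLPS, Id2 14 and 3, Rbpj 13 and 6, Il6 13 and 1, and Tnfaip3 13 and 3. The 400 regions took up 19.4% of the WTLPS list, with 1061 summits. A WTLPS p65 peak overlapped a KOLPS peak in 27.4% (24.8 to 30.2) of cases inside the 400 regions, 24.9% in other joined regions and 17.9% outside. STAT5 of WT and p65 of WTLPS both had a summit in 305 regions (76.2%), and neither had one in 15.

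Regions with more p65 summits in WTLPS had higher LPS ratios. In the 65 regions with none, the median WTLPS/WT ratio was 0.64, in 181 regions with 1 to 2 summits it was 0.80, in 108 with 3 to 5 it was 0.96, and in 46 with 6 or more it was 1.08. The KOLPS/KO medians over the same classes were 0.57, 0.72, 0.84 and 1, although the classes were set by p65 in WT cells. Median spans were 72.2, 66.6, 88.2 and 132.2 kb, and the part of length in this order was not tested. Classes set by STAT5 summits of WT, counted without LPS, also differed. With none, 1 to 2, 3 to 5 and 6 or more, median WTLPS/WT was 0.80, 0.79, 0.94 and 0.95. The KOLPS/KO medians were 0.68, 0.72, 0.82 and 0.86, so a rise was not particular to p65. Median spans in these STAT5 classes were 58.3, 68.7, 81.7 and 123.8 kb. Regions with 0, 1 to 2, 3 to 5 and 6 or more CTCF summits in WT had median WTLPS/WT ratios of 0.91, 0.89, 0.83 and 0.87 and median KO/WT ratios of 0.58, 0.53, 0.59 and 0.64.

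SMC1 had a summit in each of the 400 regions in WT, WTLPS and KO (100.0%, 99.0 to 100.0, against 49.7, 46.9 and 42.9% of all joined regions) and in 398 in KOLPS (99.5%, 98.2 to 99.9, against 32.1%). In the next 400 regions by rank the 4 shares were 99.8, 100.0, 99.2 and 96%. The summits inside the 400 regions numbered 5998, 5510, 4319 and 2901, in lists of 63638, 57354, 29965 and 17241 peaks. The 400 regions thus held 9.43, 9.61, 14.4 and 16.8% of the list. All other joined regions held 23, 22.7, 33.9 and 36.1%, so the higher share in KO lists was not particular to the 400. The Btg1 region alone had 92, 82, 67 and 58 SMC1 summits, and Il6 had 18, 33, 12 and 15. Density inside the 400 regions was 168.1 per Mb in WT and 121.1 in KO, against 89.2 and 62.1 in the 10 kb outside the ends. In the other joined regions the density inside was 147.9 per Mb in WT and 102.8 in KO. Per Mb of distal WT H3K27ac peak bases the order turned, with 432.0 SMC1 summits of WT in the 400 regions and 532.4 in the others. An SMC1 peak of WT overlapped a KO peak in 60.8% (59.6 to 62.1) of cases inside the 400 regions, 57.8% in other joined regions and 22.9% outside joined regions. Inside the 400, this share was 42.3% (39.5 to 45.0) for SMC1 peaks that overlapped CTCF in WT and 65.7% (64.4 to 67.1) for those that did not. Outside joined regions the shares were 12.7 and 44.6%.

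CTCF was inside most regions but was no denser there than around them. A CTCF summit lay inside 363 regions in WT (90.8%, 87.5 to 93.2, against 26.3%), 349 in WTLPS (87.2%, 83.6 to 90.2, against 23.9%), 232 in KO (58%, 53.1 to 62.7, against 11.9%) and 159 in KOLPS (39.8%, 35.1 to 44.6, against 7.4%). The lists held 60537, 54020, 20151 and 11576 peaks, and at equal peak number the shares were 44.8, 44.8, 43 and 39.8%. The cut also takes away the difference in peak number between genotypes. These equal-number shares therefore cannot show whether CTCF was lost from the regions. In WT, CTCF summits numbered 42.2 per Mb inside, 59.0 per Mb in the 10 kb outside the ends and 46.7 per Mb further out. In the next 400 regions by rank the densities were alike, with 50.8, 63.3 and 48.8 per Mb, and in all other joined regions they were 51.7, 52.5 and 45.6 per Mb. With promoters left out, the 400 regions had 37.1, 44.9 and 38.3 per Mb. In KO the values were 12 inside and 25.1 at the ends, and in KOLPS 6.62 and 16.2. The Klf6 region held 2 CTCF summits in WT over 292.2 kb, and the Zfp36l1 region 14 over 344.5 kb. Of the CTCF peaks inside the 400 regions in WT, 82.9% overlapped an SMC1 peak, against 70% in other joined regions and 52% outside them. An H3K27ac peak of WT, the mark that built the regions, overlapped 69.4% inside the 400 regions and 57.7% in other joined regions.

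**Figure D4:**
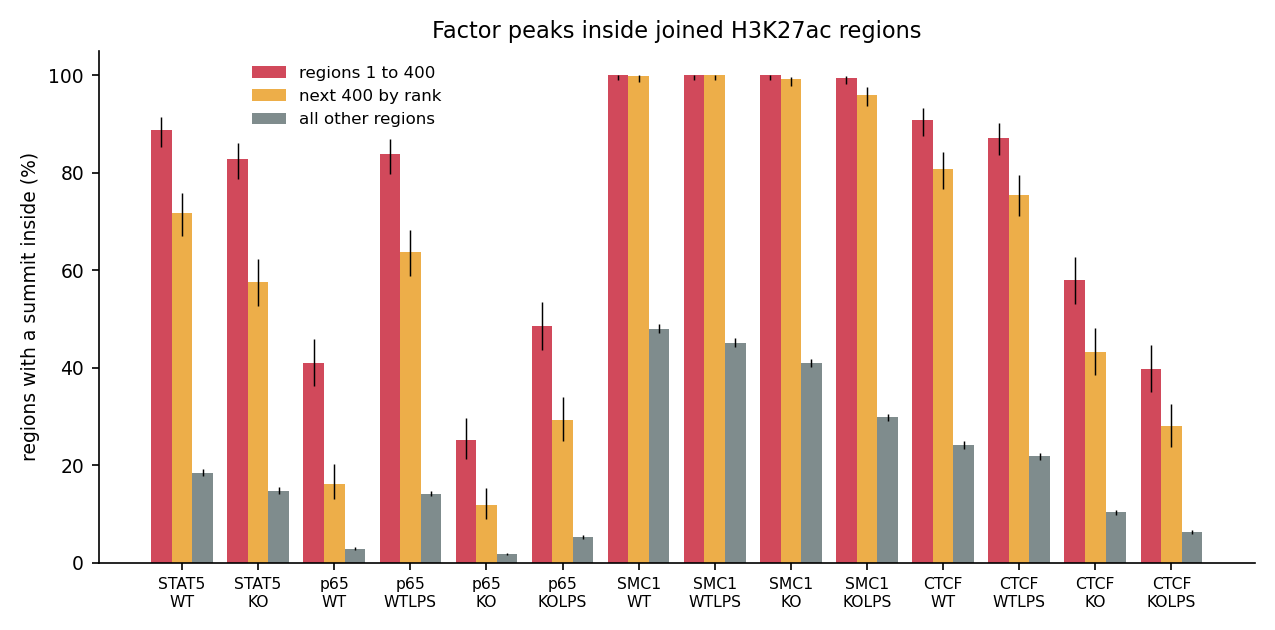
Share of regions (%) with at least 1 summit inside, for each factor list, in the 400 regions (red), the next 400 by rank (orange) and all other joined regions (grey), with 95% Wilson intervals as error bars. SMC1 is near 100% in the larger regions in all 4 lists, while p65 is highest in WTLPS (83.8%) and CTCF lowest in KOLPS (39.8%).

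From 20 kb inside to 100 kb outside the ends, the density of CTCF was highest in the bins beside the end in each of the 4 lists. In 5 kb bins of the WT list it was 72.2 per Mb in the last bin inside the ends and 70.8 per Mb in the first bin outside, and 52 and 47.2 per Mb in the bins next to these. In KO the bins beside the end had 29.8 and 34.2 per Mb, and in KOLPS 17.2 and 24.5. At the ends of the next 400 regions the WT list had 64.8 and 72 per Mb in these bins, so the rise was not particular to the 400. By the joining rule, no distal WT H3K27ac peak lies in the first 10 kb outside an end, so the low factor densities there are set in part by the rule. Of the 472 edge summits of WT, 23.9% were at a promoter. SMC1 overlapped 75.2% of them. They overlapped a KO CTCF peak in 34.5% (30.4 to 38.9) of cases, against 20.6% (18.6 to 22.7) inside the regions, 33.2% (29.2 to 37.4) at the ends of the next 400 regions and 27.5% (26.7 to 28.3) at the ends of all other joined regions. The nearest CTCF summit outside an end was at a median distance of 17 kb in WT, 19.2 kb in WTLPS, 49.9 kb in KO and 74 kb in KOLPS. It lay within 10 kb at 38.1% (34.8 to 41.5) of 800 ends in WT, close to the 36.3% of other joined regions, and at 19.4% (16.8 to 22.3) in KO, against 16% of the others. In 74 regions (18.5%) both ends had one in WT, and in 25 in KO.

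Where the nearest edge summit in WT held a CTCF core on 1 strand only, the core pointed towards the region at 44 of 57 ends (77.2%, 64.8 to 86.2). The share was 78.8% (66 to 87.8) at the ends of the next 400 regions and 54.7% (51.7 to 57.6) at those of all others. By distance, 75% of cores within 10 kb outside the ends and 65.2% of those in the first 10 kb inside pointed to the middle of the region, while 54.4% did at 10 to 50 kb and 48.9% at 50 to 100 kb outside. With the window narrowed to 5 kb the share was 88.1%, and with 25 kb it was 62.4%. Both ends held an oriented core within 10 kb in 5 regions, of which 3 were convergent. The core is in few CTCF windows: 8.17% of those inside the 400 regions and 9.69% of those outside joined regions. Regions with a CTCF summit within 10 kb of an end in WT (231) had a median KO/WT of 0.61 (quartiles 0.47 and 0.76), and the 169 without one 0.52 (0.36 and 0.70).

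**Figure D5:**
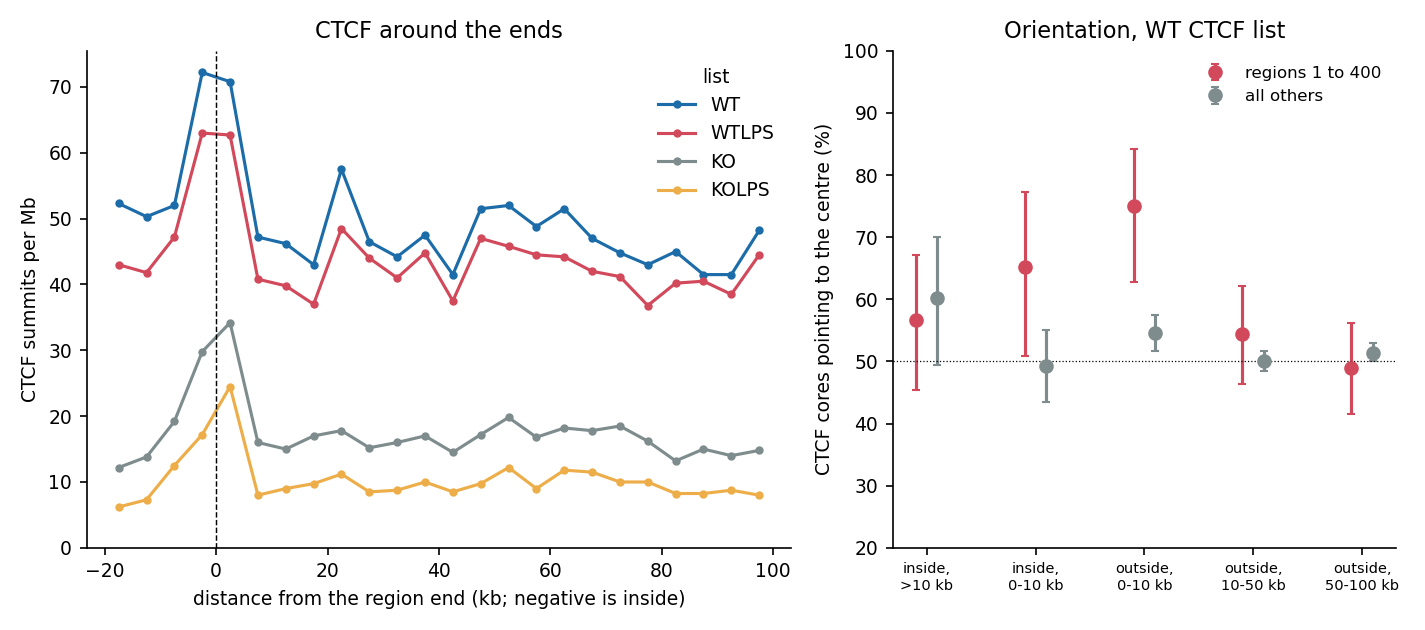
Left, CTCF summits per Mb in 5 kb bins by distance from the ends of the 400 regions (kb, negative inside) in each of the 4 lists. Right, share of oriented CTCF cores of the WT list that point to the middle of the region by distance class, for the 400 regions (red) and all other joined regions (grey), with 95% Wilson intervals and a line at equal shares. Density is highest in the bins at the end, and the inward share is highest within 10 kb outside it (75%).

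The sequence features of the regions differed little from those of other joined regions. The STAT5 motif (TTCNNNGAA, both strands) was in 33.1% of 100 bp windows at STAT5 summits of WT inside the 400 regions, in 35.3% in other joined regions and in 40.7% outside, and in 3.4% of windows at SMC1 summits inside. The κB motif was in 12.1% of windows at p65 summits of WTLPS inside the 400 regions, 12.3% in other joined regions and 10.7% outside, and in 2.77% at SMC1 summits inside. At p65 summits, the AP-1 motif (TGANTCA) was in 10.2% of windows inside the 400 regions, the C/EBP motif (TTGCNNAA) in 11.6% and the PU.1 motif (GAGGAAGT) in 4.71%. In 500 bp windows at distal H3K27ac summits, the 400 regions and the other joined regions had the STAT5 motif in 17 and 16.6%, AP-1 in 16.4 and 16.4%, C/EBP in 21.2 and 20.5% and PU.1 in 3.74 and 4.07%. The G and C content of the span was 43.6% against 44.1%.

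H3K4me1, the mark of primed and active enhancers, covered 68.5% of the span in WT and 69.8% in WTLPS, against 63% in KO and 48.1% in KOLPS. The lists covered 258.9, 263.0, 232.1 and 148.6 Mb, and at equal covered bases the values were 56.7, 58.5, 53.5 and 48.1%. H3K4me3, a mark of active promoters, covered 5.1, 4.43, 4.77 and 3.46%. H3K27me3, the Polycomb mark of repressed chromatin, covered 0.875, 0.358, 0.781 and 0.0662%. In other joined regions H3K4me1 covered 66.9% of the span in WT and H3K27me3 1.69%.

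The same rule applied to the other lists gave overlapping sets. Of the 400 WT regions, 265 (66.2%, 61.5 to 70.7) overlapped one of the 400 largest of WTLPS, 253 (63.2%, 58.4 to 67.8) one of KO and 227 (56.8%, 51.9 to 61.5) one of KOLPS. From the other side, 269 (67.2%), 262 (65.5%) and 230 (57.5%) of the 400 regions of those lists overlapped a WT region. In 163 cases (40.8%) a WT region was matched in all 3 other lists, which included Btg1, Zfp36l1, Id2, Rbpj, Etv6, Klf6, Pdcd1lg2, Cd47, Asap1 and Marcks. In 67 cases (16.8%) it was matched in none, as at Calml3, Vopp1, Tnip3, Ehf and Socs6. The 163 held 39.3 p65 summits of WTLPS per Mb and 41 STAT5 summits of WT per Mb, against 12.9 and 28.8 in the 67. These classes were set by H3K27ac in the lists themselves, WTLPS included. Median distal bases were 36.3 kb in the 163 and 20.6 kb in the 67. The part of either in these densities was not tested. The Il6 region was among 27 (6.75%) that were matched in WTLPS and KOLPS but not in KO, and Cxcr4 among 34 (8.5%) matched in KO and KOLPS but not in WTLPS.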

How the data were processed

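ChIP-seq peak lists of 8 antibodies in WT, WTLPS, KO and KOLPS BMDCs were analysed (STAT5 in WT and KO only). Tagmented libraries were sequenced from both ends. Per the submitters' processing notes, BWA 0.7.12, Picard 1.77, MACS2 2.1.2 and deepTools 3.1.3 were used with mm10. The authors deposited, peak by peak, a fold enrichment (ratio of pileup to background), −log10 p-value, −log10 q-value and, in narrow lists, a summit. H3K4me1 and H3K27me3 lists are broad. Thresholds differ between antibodies, and a mark or factor is compared only within its own lists.

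Starts came from the longest transcript of 55413 genes (GENCODE vM21). No peak ended beyond a GRCm38 chromosome, and 51.1% of protein-coding starts lay under a WT H3K4me3 peak. A peak was inside where its summit lay in the region, overlap meant at least 1 bp, and edges were 10 kb outside each end. Read numbers are not in the lists: coverage was recovered from each fold and −log10 p, and other precision is limited to counting error. Motifs were searched on both strands. The AP-1, STAT5, κB and C/EBP motifs are short and may overlap. Python 3.11.15, numpy 2.4.6 and scipy 1.17.1 were used, and scripts were tested on simulated regions. The lists measure no Ctcf deletion.

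The regions, gene lists and alternatives were chosen with earlier results of these data known. Named were the 12 largest regions, genes of the lists linked to a region, the 5 lowest and 5 highest KOLPS/WTLPS and KOLPS/KO ratios with at least 2000 bases in both lists, and 5 regions on either side of the limit. Regions above 1 in KO/WT, at or above 1.5 with LPS, or named by overlap class were named after their values were seen. Il36a, Clec7a and Trac were not found as protein-coding genes in the annotation. Alternatives covered the promoter window, joining distance, ranking, peak strength, list size and edge width.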

Additional observations from a re-analysis of the deposited data

Results flagged for a closer look

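The H3K4me1 cover of the 400 regions went opposite ways with LPS in the 2 genotypes: WTLPS minus WT was 1.3 percentage points and KOLPS minus KO was -14.9 percentage points. It was singled out because the effect of LPS had opposite signs. With 1 list per condition the difference was not tested. The KOLPS list covered 148.6 Mb, against 232.1 Mb in KO, and with lists at equal covered bases the 4 values were 56.7, 58.5, 53.5 and 48.1% in WT, WTLPS, KO and KOLPS, so the signs were still opposite. In all other joined regions the cover moved alike, from 66.9 to 68.1% in WT cells and from 61.2 to 45.4% in KO cells, so it was not particular to the 400 regions.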

How the results depend on the processing

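No paired analysis was possible because the results come from no test and each condition has 1 list. Of 301 recomputed values of 40 results, 216 were counted as the same, 83 moved and 2 changed direction. A share of regions or ends was the same within its counting interval, and a count, ratio or percent of span within 1.5 times the reported value. Under other settings, 290 (joining at 5 kb) to 356 (starts of all transcripts) of the 400 regions overlapped one of the 400 largest. Divided by list bases outside promoters, KOLPS/KO was 1.023 and KOLPS/WTLPS 1.053, both now above 1, and KO/WT was 0.911. With lists at equal covered bases KOLPS/WTLPS was 0.812. The share of regions with CTCF in WT and in KO was 93.5 and 65.8% with a promoter window of 1 kb, 70.2 and 33.2% with joining at 5 kb, 97 and 76% at 25 kb, 80.8 and 43.5% with the stronger H3K27ac peaks only, 74 and 41.5% with the stronger CTCF peaks only, and 44.8 and 43% at equal peak number. STAT5 in WT was 80, 94.5 and 76% with joining at 5 kb, at 25 kb and with the stronger factor peaks, and p65 in WTLPS 76, 89 and 68%, and 24.5% at equal peak number. Overlap with the WTLPS regions was 59.5% with 200 regions, 59 and 72.5% with joining at 5 and 25 kb, and 60% ranked by bases times fold. Overlap with KO was 70.4% with 800 regions and 68% at 25 kb, and with KOLPS 62.6 and 64.8%. The inward share of edge CTCF cores was 88.1% with an edge of 5 kb and 62.4% with 25 kb. Equal H3K4me1 bases, equal SMC1, CTCF, p65 and STAT5 peak numbers and a shorter CTCF core (71.3% inward, 55.5% in all other regions) were chosen after seeing the data. The causes were not tested, and cutting to equal peak number also takes away differences in peak number themselves. Leaving out a replicate was not possible with 1 list per condition, and the unequal coverage recovered from the lists limits comparisons between genotypes.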
